A study of Homo sapiens with 6 samples.

Results

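The genes described here encode SR proteins, hnRNPs and other regulators of pre-mRNA splicing. They were chosen by gene symbol among the protein-coding genes of the count table, by family, and they number 59 of 30618 genes. They are 12 SR proteins, 2 TRA2 proteins, 22 hnRNPs, 3 PTB proteins, 5 MBNL and CELF proteins, the 3 genes QKI, ELAVL1 and RBFOX2, the pair TIA1 and TIAL1, 4 RBM proteins and 6 SRPK and CLK kinases. The cells were ARPE-19, an established human retinal pigment epithelial line, kept in 50 mM glucose in both groups. They received a negative control siRNA (NC, n = 3 libraries) or an siRNA against EIF1 (siEIF1, n = 3 libraries), so the groups differ in the siRNA and share the cell line and the glucose. The study's methods call the 3 replicates of each group biological and give 1 siRNA sequence per group. The study's blot images number more than 1 set of EIF1 siRNA samples, and the labels do not say which siRNA was sequenced. Effects of the siRNA sequence and of the EIF1 loss cannot be told apart. All 6 libraries came from high glucose, so the values hold for that condition.

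SR proteins bind exons through RNA recognition motifs and, through a tail rich in arginine and serine, help the spliceosome to find splice sites. hnRNPs coat nascent transcripts and often oppose them at the same exons. The other families act in narrower programs, such as PTB proteins in the repression of neuronal exons and MBNL, CELF, RBFOX2 and QKI in muscle, heart and epithelial splicing, while SRPK and CLK kinases phosphorylate the SR tail. Many of these genes control their own level: in SR and TRA2 genes the protein promotes splicing of its own transcript into a form with an early stop codon, which is then degraded by nonsense-mediated decay (NMD). EIF1, the targeted gene, is a translation initiation factor that takes part in start codon selection.

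EIF1 stood at 294, 281 and 281 FPKM (fragments per kilobase of gene and scaled to the mapped fragments) in the NC libraries and at 24.3, 22.7 and 23.5 in the siEIF1 libraries. Its log2 fold change was -3.58 ± 0.0549 (standard error, adjusted p = 1.08e-13). The 6 libraries held from 26499929 to 31431479 counts, and the 59 members took from 0.946% to 1.01% of them. Of 13 markers of retinal pigment epithelium, 6 had a mean of at least 1 FPKM (BEST1, MITF, OTX2, SERPINF1, KRT8 and KRT18), TYR was near 0, and RPE65 and TTR were not analysed here. The summed level of these markers ranged from 523 to 542 FPKM in NC and from 566 to 612 FPKM in siEIF1. Most of it came from KRT18 and KRT8, with means of 326 and 113 FPKM in NC. Of 12 markers of other retinal cells, RBPMS and PDGFRB had a mean of at least 1 FPKM. PDGFRB, a pericyte marker, rose from 8.15 to 12.2 FPKM (log2 fold change 0.60, adjusted p = 0.00176). Of the 10 tested pigment epithelium markers, RLBP1 (1.55, 0.00102), KRT18 (0.25, 0.00442) and KRT8 (0.24, 0.0095) rose and 0 fell at an adjusted p under 0.05. RLBP1 was low in both groups, at 0.237 FPKM in NC and 0.68 FPKM in siEIF1. These 10 markers did not move together, since 6 had a positive and 4 a negative log2 fold change. BEST1 had a mean of 66 FPKM in NC and 52 FPKM in siEIF1 (log2 fold change -0.32, adjusted p = 0.106). All 13 proliferation markers fell in siEIF1 (median log2 fold change -1.01), and the part of all these markers in the changes of splicing genes was not tested. In RNA from whole cultures, fewer cells in a given state and less RNA per cell cannot be told apart.

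To see which splicing regulators changed on EIF1 knockdown, all 16749 genes with enough counts were fitted together, and all 59 members were among them. At an adjusted p under 0.05 (quasi-likelihood test of edgeR, p-values adjusted by Benjamini-Hochberg across the tested genes), PTBP1 and HNRNPA1 rose, and TRA2B, SRSF7, RBM39, HNRNPH3, HNRNPAB, SRSF2, HNRNPF, SRSF6, SRSF12 and RBFOX2 fell. The 2 members that rose are 3.39% of 59, against 10.2% of all tested genes that rose. The 10 that fell are 16.9%, against 10.4% of all tested genes that fell. In both directions together 12 members were called (20.3%), close to the 20.6% of all tested genes. Among tested protein-coding genes with a mean count of at least 1000, 17.8% rose and 12.9% fell.

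The changes were small. No member passed the study's limits, which add to the adjusted p a fold change over 2 or under 0.5 (0 of 59 by edgeR, by DESeq2 and by limma, and 0 at an unadjusted p under 0.05), while 1.71% of all tested genes did. The median log2 fold change of the members was -0.043, beside 0.0033 over all tested genes, and 36 of 59 (61%) had a negative value, beside 49.4% of all genes. In counts scaled to the library size by TMM (CPM), all 3 siEIF1 libraries lay under all 3 NC libraries for 20 members (33.9%, against 18.9% of all tested genes), and above them for 7 (11.9%, against 18.2%). The median of the members' log2 CPM relative to the NC mean was -0.029, -0.093 and -0.026 in siEIF1 replicates 1 to 3, so replicate 2 was the lowest. Without siEIF1 replicate 2 the median was -0.019 and 1 member rose and 3 fell, namely PTBP1 and TRA2B, SRSF7 and RBM39. In that fit 6.6% of all tested genes rose and 6.63% fell.

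The members' canonical transcripts had a median GC content of 41.8%, below the 48.5% of all tested genes. When the dependence on transcript length and GC content, fitted as a smooth curve in each library, was removed, the members' median was -0.0062, 6 members rose and 8 fell. Of all tested genes, 12.3% rose and 10.5% fell in that fit, with a median of 0.013. The 6 were PTBP1, HNRNPA1, HNRNPA1P48, HNRNPH2, HNRNPLL and TRA2A, and the 8 were TRA2B, SRSF7, RBM39, HNRNPAB, SRSF2, HNRNPF, RBFOX2 and HNRNPM. HNRNPH3, SRSF6 and SRSF12 did not pass the threshold in that fit, and their values are given below with their families.

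**Figure D1:**
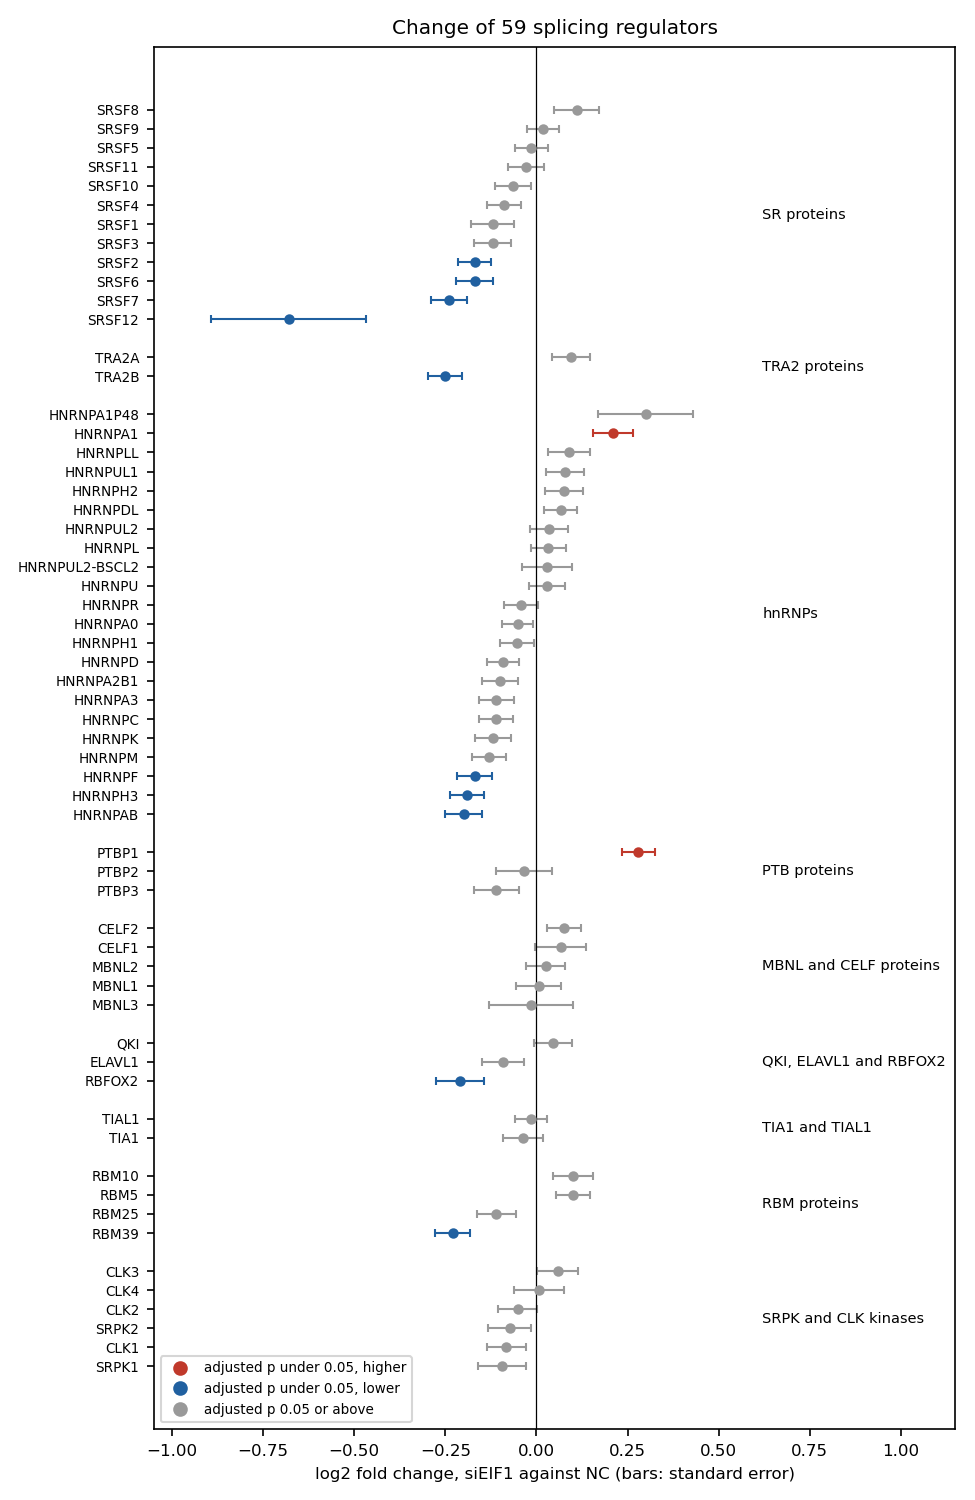
Log2 fold change of each of the 59 members, siEIF1 against NC (horizontal axis; bars, standard error; n = 3 libraries per group), ordered by family and value. PTBP1 at 0.28 and HNRNPA1 at 0.21 are the members called higher, and the 10 called lower run from -0.17 to -0.68, with SRSF12 far to the left and with the widest bar.

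Levels differed widely between members. HNRNPA1, which binds exonic silencers and packages transcripts, had the highest mean at 146 FPKM over the 6 libraries, and HNRNPK, a binder of C-rich RNA, followed at 109 FPKM. HNRNPC at 63.3 and HNRNPAB at 62.6 FPKM came next and differed by less than the spread between their libraries. SRSF6 led the SR proteins at 43.2 FPKM, before SRSF2 at 39 and SRSF9 at 34.2 FPKM. PTBP1 led its family at 29 FPKM, MBNL2 at 21.5, TRA2A at 20.3, RBM39 at 18.4, CLK1 at 13.4, TIAL1 at 10.9 and ELAVL1 at 10.1 FPKM. SRSF12 at 0.303, MBNL3 at 0.452 and PTBP2 at 0.977 FPKM were the only members with a mean under 1 FPKM.

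The gene lengths behind the authors' FPKM are not given in the sources used here, and the order of genes depends on them. Per kilobase of the canonical transcript, the order within the SR proteins changed: SRSF5 (147 CPM per kb) and SRSF9 (135) stood above SRSF2 (75.4) and SRSF6 (59.7). HNRNPA1 (321 CPM per kb) and HNRNPK (236) stayed highest among the hnRNPs, with HNRNPC (180) and HNRNPA2B1 (150) before HNRNPAB (92), and the leading member of every other family stayed the same. A comparison of the same gene between groups does not depend on this length.

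**Figure D2:**
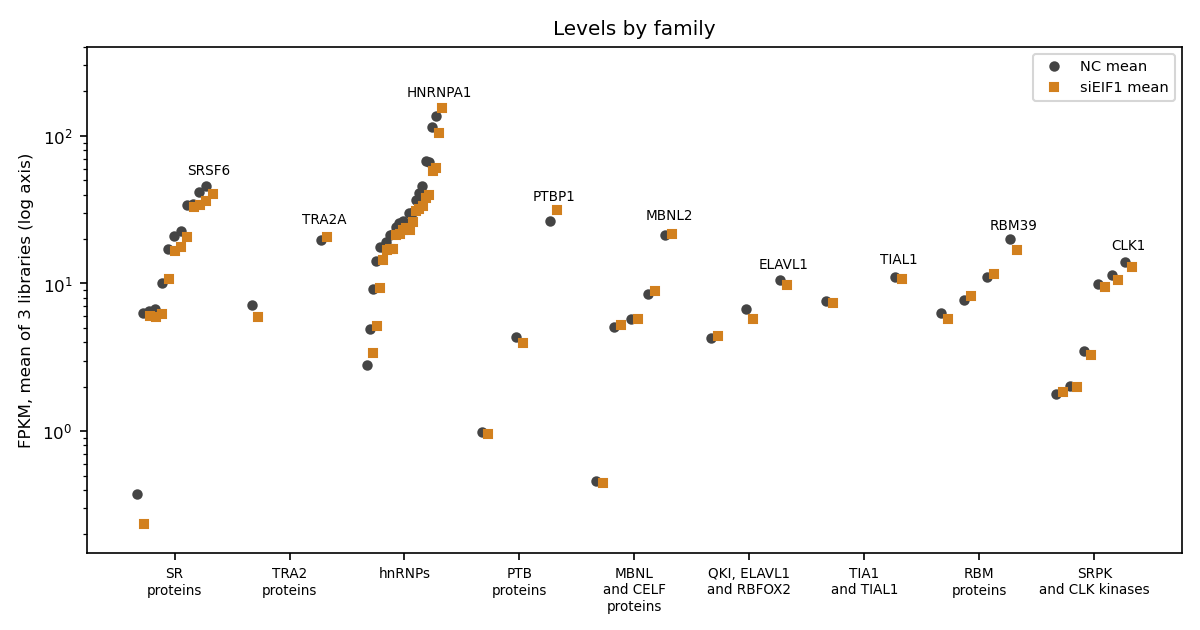
Mean FPKM of each member (log axis; 3 libraries per point) in NC (circles) and siEIF1 (squares), by family, with the most abundant member of each family labelled. HNRNPA1, at 136 FPKM in NC and 155 in siEIF1, is the top point, and SRSF12, at 0.373 and 0.233 FPKM, is the lowest.

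Of the 12 SR proteins, 4 fell and 0 rose in the edgeR fit (0 also at an unadjusted p under 0.05, by DESeq2 and by limma), and 10 had a negative log2 fold change. The 4 that fell are 33.3%, against 10.4% of all tested genes that fell. DESeq2 called 3 lower and limma on log2(FPKM + 1) called 4. With the length and GC trend removed, only SRSF7 and SRSF2 fell, while 10.5% of all tested genes fell in that fit. Only SRSF7 kept its call in every fit without 1 library. The median log2 fold change was -0.10, and -0.061 with the length and GC trend removed. Their summed level was 248, 241 and 250 FPKM in the NC libraries and 236, 219 and 227 FPKM in the siEIF1 libraries. The groups of sums did not overlap, and siEIF1 stood at 92.5% of NC.

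SRSF7, a shuttling SR protein with a zinc knuckle, lies at chr2:38743599-38751494, reverse strand (GRCh38, GENCODE release 44). Its FPKM was 21.7, 19.7 and 21.7 in the NC libraries and 18.1, 16.96 and 17.7 in the siEIF1 libraries. All siEIF1 values lay below all NC values. The log2 fold change was -0.24 ± 0.0503 (adjusted p = 0.00454), a change of -15.2%, and the call held when any 1 library was left out. With the length and GC trend removed it was still called, with a smaller log2 fold change of -0.15 (adjusted p = 0.0256).

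SRSF2, or SC35, which is a classical mark of nuclear speckles, lies at chr17:76734115-76737333, reverse strand. Its FPKM was 42.2, 39.9 and 42.3 in the NC libraries and 37.4, 35.4 and 36.6 in the siEIF1 libraries, so the groups did not overlap. The log2 fold change was -0.17 ± 0.0456 (adjusted p = 0.0192). It was no longer called without NC replicate 1 (0.0604), NC replicate 3 (0.0825) or siEIF1 replicate 2 (0.0679), where the bracketed values are adjusted p. SRSF2 overlaps MFSD11 on the opposite strand, whose log2 fold change was 0.01 (adjusted p = 0.941).

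SRSF6 lies at chr20:43457893-43466046, forward strand. It was the SR gene with the highest FPKM, with 46.7, 45.3 and 45.97 in the NC libraries and 43.1, 38.5 and 39.7 in the siEIF1 libraries. The groups did not overlap, and replicate 1 was the highest of the siEIF1 libraries. This gave a log2 fold change of -0.17 ± 0.0511 (adjusted p = 0.035), and -0.11 (adjusted p = 0.104) with the length and GC trend removed. The call was also lost without NC replicate 1 (0.102), NC replicate 2 (0.077), NC replicate 3 (0.0904), siEIF1 replicate 2 (0.134) or siEIF1 replicate 3 (0.0703).

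SRSF12, a minor SR protein at chr6:89095959-89118071, reverse strand, had the most negative log2 fold change of the members, -0.68 ± 0.213 (adjusted p = 0.0381), on few reads. It had 53, 67 and 52 counts in the NC libraries and 36, 33 and 47 in the siEIF1 libraries. Its FPKM was 0.36, 0.42 and 0.34 in the NC libraries and 0.21, 0.20 and 0.29 in the siEIF1 libraries, without overlap. DESeq2 gave an adjusted p of 0.096 and the fit with the trend removed 0.061. The call was lost without NC replicate 1 (0.085), NC replicate 2 (0.143), NC replicate 3 (0.0574), siEIF1 replicate 1 (0.095) or siEIF1 replicate 2 (0.138).

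SRSF1 and SRSF3, SR proteins known from the early work on the family, did not pass the threshold. SRSF1 had an FPKM of 6.60, 6.34 and 6.61 in the NC libraries and 5.84, 5.42 and 6.48 in the siEIF1 libraries, and siEIF1 replicate 3 lay within the NC range. Its log2 fold change was -0.12 ± 0.0595 (adjusted p = 0.18), and without siEIF1 replicate 3 it was -0.17 (adjusted p = 0.0475). SRSF1 shares exons on its strand with RP11-159D12.5, which had a mean count of 3328 and a log2 fold change of -0.16 (adjusted p = 0.0683), so the split of reads between them is uncertain. SRSF3 had an FPKM of 23.4, 21.9 and 22.3 in the NC libraries and 21.6, 19.7 and 20.2 in the siEIF1 libraries, without overlap, and a log2 fold change of -0.12 ± 0.0503 (adjusted p = 0.116). With the trend removed, SRSF1 was at -0.069 and SRSF3 at -0.054. The other 6 SR genes ran from -0.088 (SRSF4) to 0.11 (SRSF8), and SRSF9 and SRSF8 were the SR genes with a positive value.

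The paralogs TRA2A and TRA2B, which are SR-like proteins that bind GAA-rich exonic enhancers, had log2 fold changes of opposite sign. TRA2B, at chr3:185914558-185938103, reverse strand, had an FPKM of 7.07, 7.0 and 7.30 in the NC libraries and 6.16, 5.68 and 5.89 in the siEIF1 libraries. Every siEIF1 value lay below every NC value. Its log2 fold change was -0.25 ± 0.0469 (adjusted p = 0.00221), a change of -15.8%, and the call held without any 1 library and with the trend removed (adjusted p = 0.00421). TRA2A had an FPKM of 18.5, 20.2 and 20.5 in the NC libraries and 21.7, 19.7 and 21.04 in the siEIF1 libraries, and siEIF1 replicate 2 lay within the NC range. The fit gave it a log2 fold change of 0.095 ± 0.0532 (adjusted p = 0.243), and 0.18 with an adjusted p of 0.0218 once the trend was removed. The ratio of TRA2A to TRA2B in FPKM was 2.62, 2.89 and 2.81 in the NC libraries and 3.52, 3.46 and 3.57 in the siEIF1 libraries. This ratio was chosen after the values were seen and is given without a test. Per canonical transcript length, from CPM, the mean ratio was lower, at 1.74 in NC and 2.21 in siEIF1. TRA2B made up 26.5% of the summed TRA2 FPKM in NC and 22.1% in siEIF1, while the sum itself was 26.9 ± 1.16 and 26.7 ± 1.26 FPKM (SD, n = 3).

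These genes share a feature that their selection did not use. GENCODE release 44 lists at least 1 NMD transcript for 45 of the 59 members (76.3%), for all 12 SR genes and for both TRA2 genes, against 47.8% of 13257 tested protein-coding genes. Retained-intron transcripts are listed for 44 members (74.6%), against 58.9%. The members also have more annotated transcripts (median 14 against 8), which bears on how many of any kind they can have. In 20 members, 27 exons absent from the canonical transcript lie between its splice sites and hold the stop codon of an NMD transcript. Of these 20 members, 6 were called, against 20.3% of all members and 20.6% of all tested genes, and with so few genes nothing is read from this count. PTBP1 rose and TRA2B, SRSF6, SRSF7, RBM39 and RBFOX2 fell.

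The longest such exon of SRSF6, SRSF7, TRA2B, RBFOX2 and PTBP1, and that of TRA2A beside its paralog, is shown because it is where the frame ends in the NMD transcript. Letters run 5′ to 3′ on the gene's strand from the first base of the exon (GENCODE release 44, GRCh38), and capitals mark the stop codon that is in frame with the upstream coding sequence.
SRSF6 (exon of 268 bases, shown chr20:43459153-43459304, forward strand): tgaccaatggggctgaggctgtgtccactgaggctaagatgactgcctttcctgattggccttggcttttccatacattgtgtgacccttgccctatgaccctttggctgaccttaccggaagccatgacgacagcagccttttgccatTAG
SRSF7 (exon of 449 bases, shown chr2:38749319-38749346, reverse strand): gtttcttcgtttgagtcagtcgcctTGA
TRA2A (exon of 301 bases, shown chr7:23522289-23522432, reverse strand): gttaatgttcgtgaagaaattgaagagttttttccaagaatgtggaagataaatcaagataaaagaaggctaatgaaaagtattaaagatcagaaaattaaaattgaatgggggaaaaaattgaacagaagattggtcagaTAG
TRA2B (exon of 276 bases, shown chr3:185931772-185931852, reverse strand): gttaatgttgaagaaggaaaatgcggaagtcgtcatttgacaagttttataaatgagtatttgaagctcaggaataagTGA
RBFOX2 (exon of 74 bases, shown chr22:35767421-35767441, reverse strand): catttagggcccttcactTGA
PTBP1 (exon of 71 bases, shown chr19:805832-805881, forward strand): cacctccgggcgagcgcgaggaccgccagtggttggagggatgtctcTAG

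The exons of TRA2A and TRA2B both open with gttaatgtt and end their frames after 144 and 81 bases, at TAG and TGA. In SRSF7 the frame ends after 28 bases of an exon of 449. Counts per gene add the transcripts with and without these exons, so inclusion of the exons was not measured here and a change of a gene's total cannot be split between them.

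Of the 22 hnRNPs, 1 rose and 3 fell, so that 18.2% were called, near the 20.6% of all tested genes. Their log2 fold changes ran from -0.20 to 0.30, with a median of -0.048, which was -0.0089 with the length and GC trend removed. Their summed level was 796, 799 and 800 FPKM in NC and 786, 743 and 793 FPKM in siEIF1, where replicate 2 was the lowest.

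HNRNPA1 lies at chr12:54280193-54287088, forward strand. Its FPKM was 130.1, 144 and 135 in the NC libraries and 158, 156 and 152 in the siEIF1 libraries, and every siEIF1 value lay above every NC value. The log2 fold change was 0.21 ± 0.0557 (adjusted p = 0.0174), a rise of 15.6%, and its share of the summed hnRNP level was 17.1% in NC and 20.1% in siEIF1. The call was lost without NC replicate 1 (0.0807), NC replicate 3 (0.0928) or siEIF1 replicate 2 (0.0719) and kept with the trend removed (adjusted p = 0.00201). HNRNPA1 has many processed copies in the genome, and reads that match several copies were dropped because the authors counted uniquely mapped reads. Of the copies that passed the filter, HNRNPA1P48, which the annotation lists as protein-coding, had a log2 fold change of 0.30 ± 0.13 (adjusted p = 0.126). The others were HNRNPA1P7 at 0.20 (adjusted p = 0.301), HNRNPA1P10 at 0.19 (0.282) and, on far fewer counts, HNRNPA1P16 at 0.37 (0.483), HNRNPA1P33 at -0.29 (0.655) and HNRNPA1P39 at -0.058 (0.926), so none passed the threshold. Reads of HNRNPA1 and of these copies may have been assigned to one another.

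Among its relatives of the A/B group, HNRNPAB fell and the other 3 did not pass the threshold. HNRNPAB, a binder of AU-rich RNA at chr5:178204533-178211163, forward strand, had an FPKM of 68.9, 64.5 and 68.5 in the NC libraries and 59.3, 52.98 and 61.6 in the siEIF1 libraries, with replicate 2 the lowest of the siEIF1 libraries and no overlap. Its log2 fold change was -0.20 ± 0.0517 (adjusted p = 0.0165), and the call was lost without NC replicate 1 (0.0605), NC replicate 3 (0.0671) or siEIF1 replicate 2 (0.0867). HNRNPA2B1, which packages transcripts together with HNRNPA1, had an FPKM of 35.4, 37 and 37.7 in the NC libraries and 34.3, 31.4 and 35.4 in the siEIF1 libraries, and its log2 fold change was -0.10 ± 0.0501 (adjusted p = 0.174), or -0.022 with the trend removed. Its groups touched, with siEIF1 replicate 3 at 35.37 just under NC replicate 1 at 35.42. HNRNPA3 gave -0.11 ± 0.0481 (adjusted p = 0.132) and HNRNPA0 -0.052 ± 0.0428 (adjusted p = 0.441). HNRNPA2B1 overlaps CBX3 and NFE2L3 on the opposite strand, and NFE2L3 had a log2 fold change of 0.24 (adjusted p = 0.00781).

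The hnRNP H and F proteins bind G-rich RNA. HNRNPH3, at chr10:68331174-68343193, forward strand, had an FPKM of 26.8, 26.7 and 26.6 in the NC libraries and 23.8, 21.6 and 23.7 in the siEIF1 libraries. The 3 NC values lay close together, above all siEIF1 values. This gave a log2 fold change of -0.19 ± 0.0462 (adjusted p = 0.00922), and the call was lost without siEIF1 replicate 2 (0.0528) and with the trend removed (log2 fold change -0.11, adjusted p = 0.0734). HNRNPH3 overlaps RUFY2 on the opposite strand, which had a mean count of 675 and a log2 fold change of -0.19 (adjusted p = 0.059). HNRNPF, at chr10:43385617-43409186, reverse strand, had an FPKM of 45.9, 45.2 and 45.7 in the NC libraries and 42.1, 37.6 and 40.4 in the siEIF1 libraries, without overlap. The fit gave it a log2 fold change of -0.17 ± 0.0476 (adjusted p = 0.0231), and the call was lost without NC replicate 1 (0.0645), NC replicate 2 (0.0629), NC replicate 3 (0.0711) or siEIF1 replicate 2 (0.111). HNRNPH1 (-0.054 ± 0.047, adjusted p = 0.476) and HNRNPH2 (0.076 ± 0.0528, adjusted p = 0.356) did not pass the threshold.

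HNRNPC, which binds uridine tracts, and HNRNPK did not pass the threshold although no siEIF1 library reached the NC range. HNRNPC had an FPKM of 67.6, 65.1 and 65.9 in the NC libraries and 61.5, 59.1 and 60.7 in the siEIF1 libraries and a log2 fold change of -0.11 ± 0.0467 (adjusted p = 0.116). HNRNPK had an FPKM of 117, 113 and 113 in the NC libraries and 108, 98.1 and 105 in the siEIF1 libraries and a log2 fold change of -0.12 ± 0.0499 (adjusted p = 0.109). HNRNPC was called by limma on FPKM values, with both pseudocounts. With the trend removed, HNRNPC was at -0.034 (adjusted p = 0.596) and HNRNPK at -0.051 (adjusted p = 0.407). HNRNPM gave -0.13 ± 0.0458 (adjusted p = 0.0587), and its call was gained without siEIF1 replicate 3 (adjusted p = 0.0334) and with the trend removed (adjusted p = 0.0393). HNRNPUL2 and the readthrough HNRNPUL2-BSCL2 share exons with each other, and the readthrough also with BSCL2. Their log2 fold changes of 0.035 and 0.03 therefore rest on reads that could not be assigned with certainty. The remaining hnRNPs ran from -0.091 (HNRNPD) to 0.089 (HNRNPLL).

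PTBP1, the PTB protein of most non-neuronal cells, had the smallest p-value of the members. It lies at chr19:797075-812327, forward strand. Its FPKM was 26.1, 25.9 and 26.9 in the NC libraries and 30.5, 30.96 and 33.3 in the siEIF1 libraries, and every siEIF1 value lay above every NC value. The log2 fold change was 0.28 ± 0.0464 (adjusted p = 0.000786), a rise of 21.8%, and the call held in all 6 fits that left out a library (log2 fold change from 0.26 to 0.31) and with the trend removed (0.25, adjusted p = 0.000355). PTBP2, the neuronal paralog whose transcript PTBP1 is known to repress, had an FPKM of 0.99, 1.01 and 0.98 in the NC libraries and 1.05, 0.86 and 0.97 in the siEIF1 libraries, with overlap. Its log2 fold change was -0.034 ± 0.0779 (adjusted p = 0.806) and turned to 0.057 with the trend removed. PTBP3 gave -0.11 ± 0.0616 (adjusted p = 0.256). The summed PTB level was 31.6 ± 0.318 FPKM in NC and 36.5 ± 1.6 FPKM in siEIF1 (SD, n = 3), and PTBP1 made up 83.1% of it in NC and 86.5% in siEIF1.

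**Figure D3:**
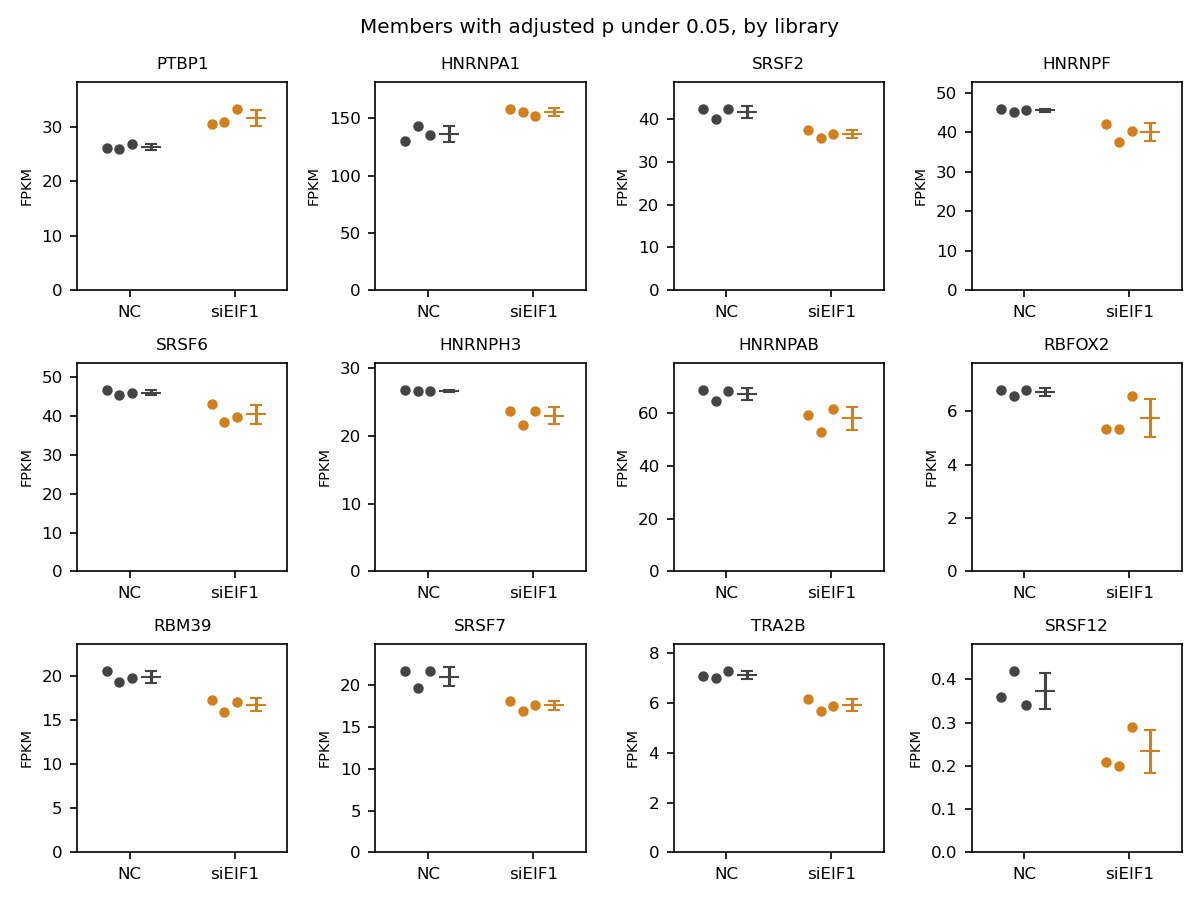
FPKM of the 12 members with an adjusted p under 0.05, by library (points; axis from 0) with the mean and SD of 3 libraries beside them, ordered by log2 fold change. PTBP1 and HNRNPA1 lie higher in siEIF1, and in the other 10 panels the siEIF1 libraries lie lower, apart from 1 RBFOX2 library at 6.56 FPKM that reaches the NC range.

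Among the 5 MBNL and CELF proteins, 0 passed the threshold in the edgeR fit, and 0 had an unadjusted p under 0.05 or were called by DESeq2 or limma. Of all tested genes 20.6% were called by edgeR, and with 5 genes nothing is read from this count. MBNL proteins oppose CELF proteins in the switch from fetal to adult splicing. MBNL2 was the most abundant, with an FPKM of 20.01, 21.7 and 22.6 in the NC libraries and 21.99, 21.4 and 21.02 in the siEIF1 libraries and a log2 fold change of 0.025 ± 0.0531 (adjusted p = 0.795). MBNL1 had an FPKM of 6.05, 5.44 and 5.87 in the NC libraries and 5.99, 5.11 and 6.10 in the siEIF1 libraries and a log2 fold change of 0.0065 ± 0.062 (adjusted p = 0.961). CELF1 had an FPKM of 5.27, 4.78 and 5.11 in the NC libraries and 4.84, 4.84 and 5.97 in the siEIF1 libraries and a log2 fold change of 0.066 ± 0.07 (adjusted p = 0.567), with siEIF1 replicate 3 the highest of all 6 libraries. CELF2 gave 0.076 ± 0.0467 (adjusted p = 0.286), and MBNL3 -0.016 ± 0.115 (adjusted p = 0.943). The summed level of the family was 41.3 ± 1.46 FPKM in NC and 41.8 ± 1.3 FPKM in siEIF1.

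RBFOX2, which binds UGCAUG and guides epithelial and mesenchymal exons, lies at chr22:35738736-36028824, reverse strand. Its FPKM was 6.80, 6.55 and 6.78 in the NC libraries and 5.33, 5.33 and 6.56 in the siEIF1 libraries, so siEIF1 replicate 3 lay within the NC range while replicates 1 and 2 were below it. The fit gave a log2 fold change of -0.21 ± 0.0656 (adjusted p = 0.0402). The call was lost without NC replicate 1 (0.116), NC replicate 2 (0.0793), NC replicate 3 (0.105), siEIF1 replicate 1 (0.127) or siEIF1 replicate 2 (0.162) and held without siEIF1 replicate 3, where the log2 fold change was -0.30 (adjusted p = 0.000805). It was also absent from limma on FPKM and kept with the trend removed (adjusted p = 0.00147). QKI, a regulator of splicing and circular RNA formation, had an FPKM of 4.06, 4.22 and 4.60 in the NC libraries and 4.42, 4.13 and 4.58 in the siEIF1 libraries and a log2 fold change of 0.046 ± 0.0527 (adjusted p = 0.596). ELAVL1, or HuR, which stabilizes AU-rich transcripts, had an FPKM of 10.7, 9.99 and 10.9 in the NC libraries and 9.99, 8.75 and 10.5 in the siEIF1 libraries and a log2 fold change of -0.092 ± 0.0581 (adjusted p = 0.3). In both the groups overlapped.

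TIA1 and TIAL1, which bind uridine-rich RNA downstream of weak 5′ splice sites and join stress granules, did not pass the threshold (0 of 2 by edgeR, DESeq2 and limma, and 0 at an unadjusted p under 0.05). Of all tested genes 20.6% were called by edgeR, and with 2 genes nothing is read from this count. TIA1 had an FPKM of 7.25, 7.72 and 8.02 in the NC libraries and 7.67, 6.87 and 7.58 in the siEIF1 libraries and a log2 fold change of -0.036 ± 0.0547 (adjusted p = 0.702). TIAL1 had an FPKM of 11, 10.9 and 11.2 in the NC libraries and 10.96, 10.4 and 10.9 in the siEIF1 libraries and a log2 fold change of -0.015 ± 0.0446 (adjusted p = 0.855). The groups overlapped for both genes.

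Of the RBM proteins, RBM39 fell and the other 3 did not pass the threshold. RBM39, a U2AF-like factor at chr20:35701347-35742312, reverse strand, had an FPKM of 20.7, 19.4 and 19.8 in the NC libraries and 17.4, 15.9 and 17.1 in the siEIF1 libraries, without overlap. In the fit it had a log2 fold change of -0.23 ± 0.0484 (adjusted p = 0.00456), a change of -14.7%, and the call held without any 1 library and with the trend removed (adjusted p = 0.00355). RBM39 has 47 annotated transcripts, of which 16 are NMD and 16 retained-intron transcripts. RBM5 and RBM10, paralogs that regulate exons of apoptosis and Notch pathway genes, gave 0.10 ± 0.0456 (adjusted p = 0.139) and 0.10 ± 0.0549 (adjusted p = 0.238), and RBM25 gave -0.11 ± 0.0539 (adjusted p = 0.194).

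Of the 6 kinases that phosphorylate SR proteins, 0 passed the threshold by edgeR, DESeq2 or limma, and 0 had an unadjusted p under 0.05. Of all tested genes 20.6% were called by edgeR, and with 6 genes nothing is read from this count. CLK1, a nuclear kinase that releases SR proteins from speckles, had an FPKM of 14.2, 14.2 and 13.3 in the NC libraries and 13.5, 12.7 and 12.7 in the siEIF1 libraries and a log2 fold change of -0.083 ± 0.053 (adjusted p = 0.308). SRPK1, a cytoplasmic kinase that prepares SR proteins for nuclear import, had an FPKM of 11.9, 10.8 and 11.5 in the NC libraries and 10.95, 9.18 and 11.5 in the siEIF1 libraries and a log2 fold change of -0.094 ± 0.0658 (adjusted p = 0.36). The others ran from -0.074 (SRPK2) to 0.058 (CLK3). The summed level of the kinases was 42.5 ± 0.626 FPKM in NC and 40.0 ± 1.49 FPKM in siEIF1.

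To compare paralogs and competing regulators, 3 ratios of FPKM were formed in each library. The groups were compared by an exact two-sided permutation test over the 6 libraries, whose smallest possible p is 0.1. PTBP2 to PTBP1 was 0.038, 0.039 and 0.0364 in NC and 0.0344, 0.0278 and 0.0291 in siEIF1, without overlap (p = 0.1, exact). SRSF1 to HNRNPA1, which compete in the choice of 5′ splice sites, was 0.0507, 0.0442 and 0.0488 in NC and 0.0369, 0.0348 and 0.0426 in siEIF1, without overlap (p = 0.1, exact). MBNL2 to MBNL1 was 3.31, 3.99 and 3.85 in NC and 3.67, 4.2 and 3.45 in siEIF1 (p = 0.9, exact). With 3 libraries per group, no adjustment over the 3 ratios could bring these values under 0.05. HNRNPA1 to HNRNPA2B1, chosen after the values were seen and given without a test, was 3.67, 3.88 and 3.59 in NC and 4.61, 4.96 and 4.3 in siEIF1. The level of such ratios depends on the gene lengths used: per canonical transcript length HNRNPA1 to HNRNPA2B1 was 1.91 in NC and 2.38 in siEIF1.

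**Figure D4:**
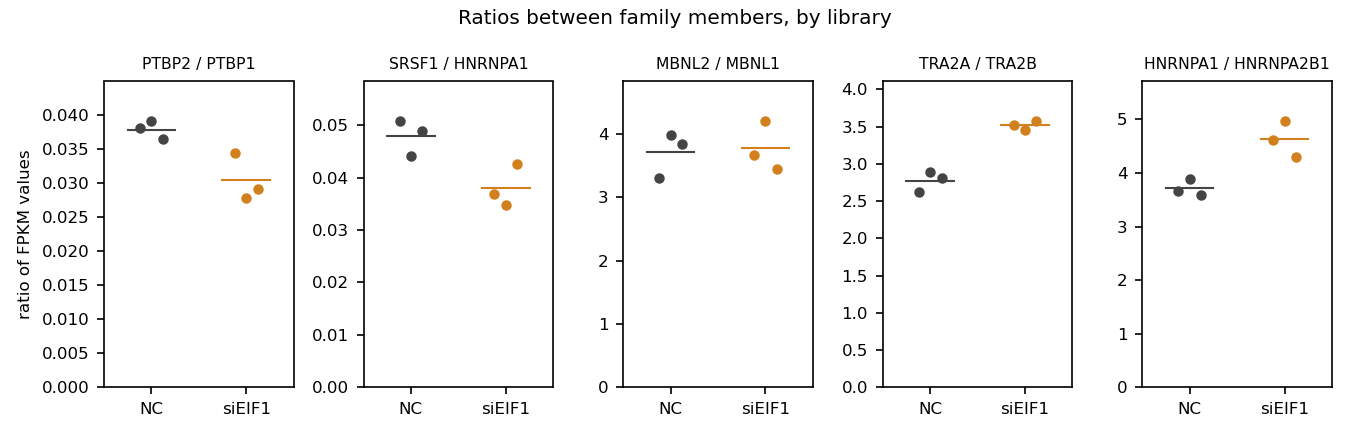
Ratios of FPKM values between members in each library (points; lines, means of 3; each axis starts at 0). The siEIF1 libraries lie below the NC libraries for PTBP2/PTBP1 and SRSF1/HNRNPA1 and above them for TRA2A/TRA2B and HNRNPA1/HNRNPA2B1, and the groups overlap for MBNL2/MBNL1.

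Splicing factors outside these families were taken from a pair of lists. Of 15 tested SR-related cofactors, importers and other kinases, 2 (RNPS1 and TNPO3) had a positive value at an unadjusted p under 0.05, and 2 a negative value. At an adjusted p under 0.05, 0 rose and 1 fell by edgeR, DESeq2 and limma, and the median log2 fold change was -0.034. In both directions together 6.67% were called, against 20.6% of all tested genes. The gene that fell was PNN, a speckle protein that binds the exon junction complex, at 22.3 ± 0.905 FPKM in NC and 18.5 ± 0.884 in siEIF1 (log2 fold change -0.25 ± 0.0517, adjusted p = 0.0041). Of 44 tested other RNA-binding proteins linked to splicing, 4 rose and 2 fell (median 0.037). These are 9.09% and 4.55%, against 10.2% and 10.4% of all tested genes, so the list was called no more often than genes at large. RBMX, also named hnRNP G and a binding partner of TRA2B, rose with a log2 fold change of 0.24 ± 0.0474 (adjusted p = 0.00271), and PCBP2, a relative of HNRNPK, with 0.23 ± 0.0494 (adjusted p = 0.00514).

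The calls differed in how far they held. PTBP1, TRA2B, SRSF7 and RBM39 were called in the main fit, in each of the 6 fits without 1 library, and in the fits with other scaling, filters, tools and the trend removed. In the fits without 1 library, from 1 to 2 members rose and from 3 to 11 fell. Of all tested genes, from 6.6% to 10.1% rose and from 6.63% to 10.4% fell in these fits.

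**Figure D5:**
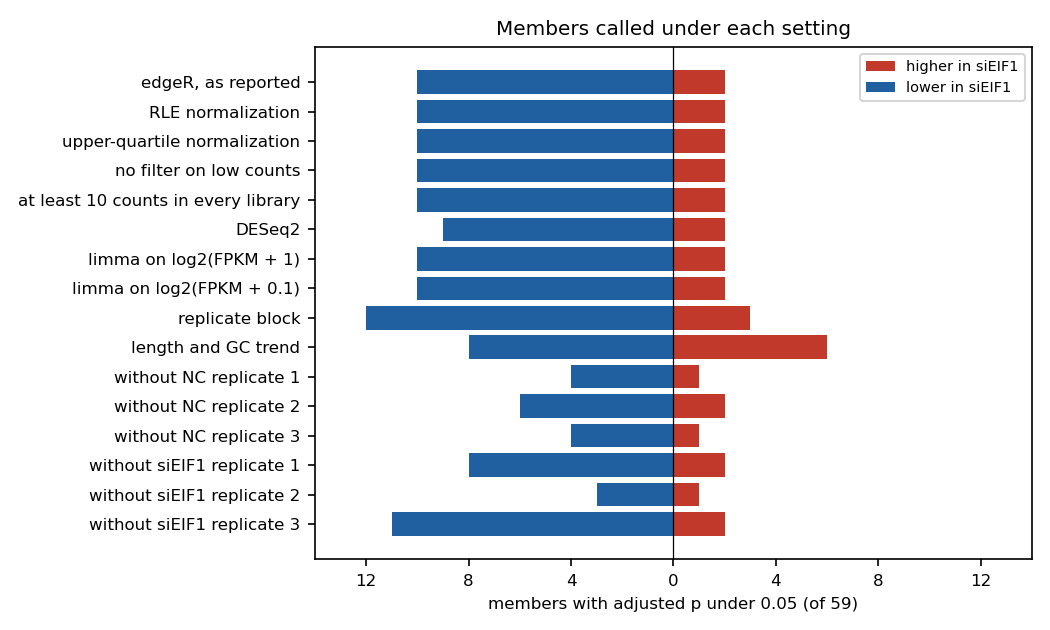
Number of the 59 members called higher (right) and lower (left) in siEIF1 under each setting (adjusted p under 0.05; horizontal axis, number of members). The edgeR fit as reported gives 2 and 10, removing the length and GC trend gives 6 and 8, and leaving out siEIF1 replicate 2 gives 1 and 3.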

How the data were processed

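Captured mRNA of 6 ARPE-19 cultures was sequenced together, paired-end at 150 nt per read. According to the study's methods, the authors trimmed reads with FASTX-Toolkit 0.0.13, aligned them to GRCh38 with HISAT2 (up to 4 mismatches), and deposited raw counts of uniquely mapped reads per gene. A second deposited table holds FPKM, that is, counts divided by gene length and by mapped fragments. The counting program, its strand setting and the annotation release are not given in the sources used here, so overlapping and near-identical genes are uncertain.

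Libraries were grouped by title, with 3 NC and 3 siEIF1. Counts were filtered with filterByExpr, scaled by TMM and tested with edgeR 4.0.16 (quasi-likelihood, Benjamini-Hochberg over 16749 genes) in R 4.3.3, and standard errors were derived from the F statistic. Genes with fewer counts have wider errors (26499929 to 31431479 counts per library). Replicates of a group differed by more than sampling noise (chi-square over degrees of freedom between 3.03 and 14.1). Ratios were tested with scipy 1.17.1. Coordinates, transcripts and sequences came from GENCODE release 44 (GRCh38), with canonical transcripts giving length and GC content. The fits were tested on simulated data with planted changes larger than that of any member, so recovery of changes of the members' size was not tested. The alternatives were RLE and upper-quartile scaling, no filter, at least 10 counts in every library, DESeq2 1.42.0, limma 3.58.1 on log2(FPKM + 1) and log2(FPKM + 0.1), the replicate number as a block, a smooth trend on length and GC content (mgcv 1.9.3), and leaving out each library. The rule for the members uses gene families and no measured value, but the families and the other lists were chosen with earlier results of these data known.

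Values per library are given for EIF1, for 19 members set by name, for the most abundant member of each family, and for members with an adjusted p under 0.05 (at most 10 per direction, by p). Other members are given by log2 fold change, and other lists by counts, medians and up to 3 members. Splicing events were not analysed here. Some items that fall under these rules are not reported here.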

Additional observations from a re-analysis of the deposited data

How the results depend on the processing

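Under RLE and upper-quartile scaling, both other filters, DESeq2 and limma, 2 members rose and 9 or 10 fell. Of all genes in these fits, from 4.6% to 11.1% rose and from 4.93% to 11.2% fell. DESeq2 and the fit without a filter covered 30618 genes, including those that the main fit left out for low counts, so their shares are not comparable with the others. The 1409 genes that rose and the 1510 that fell by DESeq2 were all among the 16749 of the main fit. With the length and GC trend removed, 6 members rose, 8 fell and the median log2 fold change was -0.0062, while 12.3% of all tested genes rose and 10.5% fell. Without 1 library, from 1 to 2 rose, from 3 to 11 fell, the median ran from -0.065 to -0.019, and from 2242 to 3472 genes were called in all (3446 in the main fit). EIF1 stayed lower and no member passed the fold limit in any fit. Values of members near 0 changed sign: with the trend removed CLK1 was at 0.016, PTBP2 at 0.057, TIA1 at 0.039 and TIAL1 at 0.056, and under limma MBNL1 was at -0.014 and -0.016. Without 1 library, CELF1 ran from -0.026 to 0.12, MBNL1 from -0.035 to 0.068, MBNL2 from -0.021 to 0.055 and PTBP2 from -0.11 to 0.024. None of these passed the threshold in any of those fits, and the cause was not tested. Of 420 values of named members under alternatives, 368 kept their sign and side of the threshold, 35 lost the call, 5 gained it and 12 changed sign. The 3 tested ratios moved by less than the spread between replicates without any 1 library. CPM over gene length in place of FPKM gave nearly the same ratios. These lengths were derived from the FPKM values themselves, so that match was built in and nothing is read from it.

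The labels number the replicates 1 to 3 in both groups, but nothing says that a number marks a shared culture or day. The deviations of same-numbered libraries from their group means correlated at 0.149, 0.0946 and 0.128, and each library correlated best with its own number, which is a hint from the data and not from the design. With the replicate number as a block, 3 members rose, 12 fell (HNRNPA1P48, HNRNPM and SRSF3 were added), the median was -0.044, and 4277 genes were called in all. Of all tested genes, 12.8% rose and 12.7% fell in that fit.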
